A study of Mus musculus with 21 samples.

Results

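The genes described are 10 zinc-dependent histone deacetylases of the mouse, chosen by symbol from the 24498 genes of the counts table: Hdac1, Hdac2, Hdac3 and Hdac8 of class I, Hdac4, Hdac5, Hdac7 and Hdac9 of class IIa, Hdac6 of class IIb and Hdac11, the one member of class IV. RNA of the hippocampus of male mice, 8 weeks old per the labels, was sequenced after an intraperitoneal injection of 2 g/kg ethanol, given as a 20% solution in saline, with and without a knockdown of Acss2. Acss2 encodes acetyl-CoA synthetase 2, which makes acetyl-CoA from acetate, and the study asked how its loss alters the expression response to ethanol. The groups used here are ACSS2 knockdown, dorsal hippocampus (4 libraries), control, dorsal (3), ACSS2 knockdown, ventral (3) and control, ventral (4), and all 14 libraries share the ethanol treatment. The knockdown vector was AAV2/9 U6.shACSS2.CMV.EGFP, a short hairpin RNA under the ubiquitous U6 promoter, so the promoter does not restrict it to a cell type. Which cells took up the vector is not known from these data. The sample protocol places its injection in the dorsal hippocampus, so the ventral tissue of a knockdown mouse was not the injected site. The design text of the series instead reads as an injection by the same systemic route as ethanol, and neither source names a vector for the control arm or a mouse strain.

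Histone deacetylases remove acetyl groups from lysines, chiefly on histone tails, and so work against the acetyltransferases that use acetyl-CoA. Class I enzymes are mostly nuclear, and Hdac1, Hdac2 and Hdac3 act inside corepressor complexes. Class IIa proteins have weak catalytic activity of their own, bind MEF2 transcription factors and leave the nucleus when calcium-dependent kinases phosphorylate them, which couples them to neuronal activity. Hdac6 is a cytoplasmic tubulin deacetylase, and Hdac11 is an enzyme of the brain and other tissues that removes long fatty acyl groups from lysines. Transcript levels do not report enzyme activity.

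Reads assigned to genes numbered 2819837 to 13240179 in the 14 libraries, and a single histone deacetylase gene had 21 to 3692 reads in a library. All 10 passed the low-count filter among 14578 tested genes. Acss2 averaged 30.6 ± 13.9 CPM (counts scaled to 1000000 reads of the TMM-adjusted library size, SD, n = 4) in knockdown dorsal libraries and 54.9 ± 3.34 CPM in control dorsal libraries (n = 3), without overlap. The knockdown dorsal libraries were uneven. The highest, knockdown dorsal 1, had 44.3 CPM, against 52.9 CPM in the lowest control dorsal library. Acss2 reads were 311, 421, 165 and 144 in knockdown dorsal 1 to 4. The TMM-adjusted library sizes were 7023945, 10303030, 9156812 and 7467087 reads. The lower dorsal mean thus came chiefly from knockdown dorsal 3 and 4. Acss2 averaged 43.1 ± 18.2 CPM in knockdown ventral libraries (n = 3) and ranged there from 28.9 to 63.6 CPM. Control ventral libraries (n = 4) had 47.5 to 54.2 CPM, so these groups overlapped. The 63.6 CPM was that of knockdown ventral 3, above every control ventral library, while the other knockdown ventral libraries lay below them. Markers of hippocampal excitatory neurons were detected in each library. In 3 libraries, knockdown dorsal 2, knockdown ventral 3 and control ventral 1, the ribosomal precursor transcript Rn45s took 0.625% to 1.17% of gene reads, against 3.49% to 20.7% in the other 11. Several results below are also given without these 3 libraries, a choice made after seeing the data. Labels do not say whether replicates are separate animals, so p-values measure the spread between libraries only.

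The promoters of Hdac2, Hdac4 and Hdac5 are shown because Hdac4 and Hdac5 varied most between libraries and Hdac2 ran opposite to them. Each line is the 250 bases before the RefSeq transcription start (build GRCm38.p6, 5′ to 3′ on the gene's own strand), with GC boxes (GGGCGG on either strand) and CCAAT boxes (CCAAT on either strand) in capitals. Hdac2 lies at chr10:36974294-36974543 on the plus strand, Hdac4 at chr1:92180342-92180591 on the minus strand and Hdac5 at chr11:102230173-102230422 on the minus strand.
Hdac2: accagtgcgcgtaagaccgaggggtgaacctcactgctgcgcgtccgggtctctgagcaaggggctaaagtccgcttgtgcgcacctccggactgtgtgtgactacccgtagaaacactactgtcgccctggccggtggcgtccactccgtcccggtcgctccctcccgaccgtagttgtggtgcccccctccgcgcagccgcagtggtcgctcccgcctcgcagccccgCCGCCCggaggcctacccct
Hdac4: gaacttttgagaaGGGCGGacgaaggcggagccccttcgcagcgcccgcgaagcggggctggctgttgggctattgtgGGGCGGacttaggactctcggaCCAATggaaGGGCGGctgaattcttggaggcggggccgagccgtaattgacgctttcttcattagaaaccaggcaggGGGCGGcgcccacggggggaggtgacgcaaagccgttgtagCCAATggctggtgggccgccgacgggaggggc
Hdac5: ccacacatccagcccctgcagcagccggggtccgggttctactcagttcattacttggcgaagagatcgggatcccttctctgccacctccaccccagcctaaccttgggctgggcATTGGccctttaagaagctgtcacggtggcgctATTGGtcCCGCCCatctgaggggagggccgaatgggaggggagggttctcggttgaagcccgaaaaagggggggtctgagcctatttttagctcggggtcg

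The Hdac2 window held 1 GC box and 0 CCAAT boxes, the Hdac4 window 4 GC boxes and 2 CCAAT boxes, and the Hdac5 window 1 GC box and 2 CCAAT boxes. Among 32851 RefSeq promoter windows of the same length, 32.7% held a GC box and 33.8% a CCAAT box. GC content was 68.8% for Hdac2, 65.2% for Hdac4 and 60.8% for Hdac5, above the median of 52.4% over all windows. A full cAMP response element (TGACGTCA, its own reverse complement), found in 1.55% of windows, was in 0 of these 3. RefSeq entries were matched for 8 of the 10 genes, and these counts describe the letters of the windows alone.

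In mm10 coordinates of GENCODE M21, Hdac2 spans chr10:36974544-37001889, Hdac4 chr1:91928779-92195699 and Hdac5 chr11:102194432-102230166. The RefSeq start used for Hdac4 therefore lies within the GENCODE span of the gene. Exons of Hdac4 overlapped a long noncoding RNA on the opposite strand, Gm26720, over 22.36% of their length, and those of Hdac11 overlapped Gm44002 over 15.43%. The strand setting of the counting is not given, so how reads from these shared stretches of exon were counted is not known.

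Among the 10 genes, Hdac11 had the highest level per kilobase of exon, and Hdac8 and Hdac9 the lowest. Hdac10, the other class IIb gene, is not in the set described and was not ranked. Hdac11 averaged 51.55 ± 11.7 CPM per kb (SD, n = 14 libraries here and in the following levels) and stood above the next gene in 14 of 14 libraries. Hdac3, the catalytic subunit of the NCoR/SMRT complexes, averaged 19.97 ± 3.33 CPM per kb, Hdac5 18.71 ± 6.8 CPM per kb and Hdac2 15.62 ± 4.14 CPM per kb. These 3 did not separate beyond their spread: Hdac3 exceeded Hdac5 in 5 of 14 libraries, and Hdac5 exceeded Hdac2 in 8. Hdac2 exceeded Hdac6 in 13 of 14 libraries.

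Hdac6 averaged 9.255 ± 1.35 CPM per kb and exceeded Hdac7, at 6.284 ± 2.09 CPM per kb, in 14 of 14 libraries. Hdac1, the close paralog of Hdac2 that shares its NuRD, Sin3 and CoREST complexes, averaged 4.989 ± 0.906 CPM per kb and lay below Hdac7 in 11 of 14. Hdac4 averaged 4.037 ± 1.67 CPM per kb, below Hdac1 in 9 of 14 libraries and above Hdac9 in 11. Hdac9 at 2.594 ± 0.773 CPM per kb and Hdac8 at 2.525 ± 0.332 CPM per kb were not ordered, since each was the higher one in 7 of 14 libraries. The length used decides part of this order. With the longest annotated transcript instead of all exons, Hdac5 came after Hdac11 at 30.38 CPM per kb (9.836 to 47.09), then Hdac3 at 22.58 ± 3.77 CPM per kb, and Hdac9 was last at 4.79 ± 1.43 CPM per kb, while Hdac11 stayed first at 74.79 ± 17.0 CPM per kb.

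**Figure D1:**
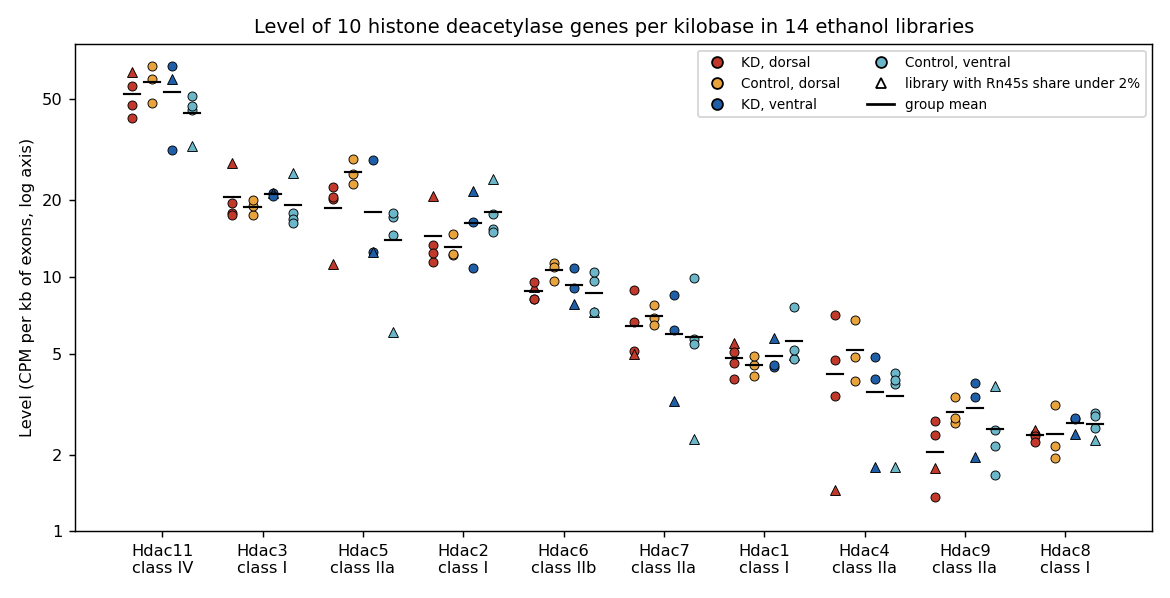
Level of each histone deacetylase gene in CPM per kb of exons (log axis) in 14 ethanol libraries, grouped as ACSS2 knockdown dorsal, control dorsal, knockdown ventral and control ventral, with a black line at each group mean and triangles for the 3 libraries with the lowest Rn45s share. Hdac11 lies above the other genes, and the triangles are low for Hdac4 and high for Hdac2.

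By class, Hdac11 alone made up 37.6 ± 4.94% of the summed level per kb of the 10 genes (SD, n = 14), class I 32.3 ± 7.4%, class IIa 23.2 ± 6.08% and class IIb 6.85 ± 0.849%. Class IIa ranged from 12.5% in control ventral 1 to 32.6% in control dorsal 1. Class I reached its highest share, 51.4%, in the same control ventral 1 library and its lowest, 23.9%, in knockdown ventral 4. Within the control ventral group alone, the class IIa share ran from 12.5% to 24.4%.

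Hdac4, Hdac5 and Hdac7 were the most variable members. The SD of log2 CPM over the 14 libraries was 0.688 for Hdac4, 0.619 for Hdac5 and 0.563 for Hdac7, against a median of 0.378 over tested genes that averaged 5 CPM or more. Hdac8 at 0.189, Hdac6 at 0.214, Hdac3 at 0.224 and Hdac1 at 0.234 were the least variable, and Hdac9 (0.45), Hdac2 (0.361) and Hdac11 (0.351) lay between.

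Hdac4, which in neurons shuttles between nucleus and cytoplasm with synaptic activity, had 112, 23.0, 54.0 and 74.9 CPM in the 4 knockdown dorsal libraries and 107, 76.9 and 61.4 CPM in the 3 control dorsal libraries. In ventral tissue it had 62.8, 28.2 and 77.0 CPM in knockdown libraries 2, 3 and 4 and 28.2, 59.9, 66.2 and 62.0 CPM in control libraries 1 to 4. The 3 lowest values, 23.0, 28.2 and 28.2 CPM, were those of the 3 libraries of lowest Rn45s share, and the other 11 began at 54.0 CPM.

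Hdac2, which in mouse hippocampus is known to restrain synapse number and memory, had 59.9, 93.2, 51.1 and 55.7 CPM in knockdown dorsal libraries and 54.4, 55.1 and 66.0 CPM in control dorsal libraries. In ventral tissue it had 73.9, 97.01 and 48.6 CPM in knockdown libraries and 108, 68.8, 78.9 and 67.4 CPM in control libraries. Its 3 highest values came from the same 3 libraries in which Hdac4 was lowest, and the next was 78.9 CPM. Hdac3 was also highest in 2 of them, at 113 CPM in knockdown dorsal 2 and 103 CPM in control ventral 1, over a range of 66.3 to 86.7 CPM elsewhere.

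In these 3 libraries, levels over the 14132 tested genes with an annotated length and GC value moved with transcript length or GC content. Deviation here is the log2 CPM of a gene in 1 library minus its mean over the 14. Genes were cut into 5 bins of equal size by transcript length and again by GC content. The median deviation in the bin of longest transcripts minus that in the bin of shortest was -0.901 in knockdown dorsal 2 and -0.903 in knockdown ventral 3, and between -0.344 and 0.369 in the other 12. For GC content, the highest bin minus the lowest gave -1.307 in control ventral 1, against -0.505 to 0.529 in the other 13. Hdac4, Hdac5 and Hdac9 lie in the longest bin and Hdac5, Hdac7 and Hdac11 in the GC-richest, whereas Hdac2 lies in the middle bin by length and, with Hdac8, in the lowest by GC.

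**Figure D2:**
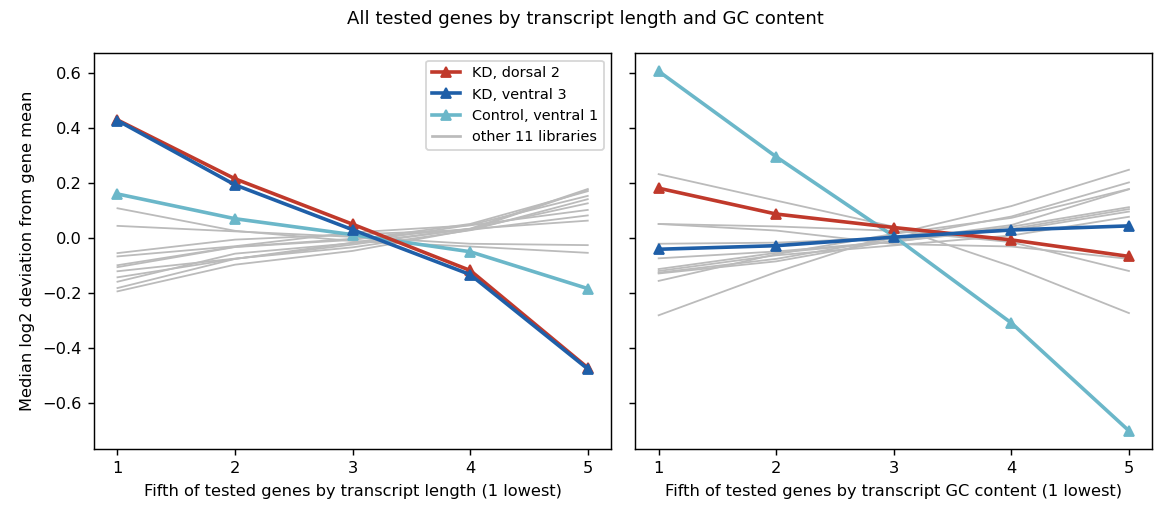
Median log2 deviation of the 14132 tested genes with a length and GC value from their means over 14 libraries (vertical axis), by bin of transcript length (left) and of GC content (right), 5 bins each; coloured lines with triangles are the 3 libraries of lowest Rn45s share and grey lines the other 11. The long genes are low in knockdown dorsal 2 and knockdown ventral 3 (-0.901 and -0.903 longest minus shortest bin), and the GC-rich genes are low in control ventral 1 (-1.307).

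After a trend over length and GC was fitted in each library and taken out, a choice made after seeing the data, the SD of log2 CPM was 0.366 for Hdac4, 0.241 for Hdac5, 0.283 for Hdac7 and 0.245 for Hdac2, and the median over genes was 0.3. Without the 3 libraries and with no trend removed it was 0.34 for Hdac4, 0.383 for Hdac5, 0.308 for Hdac7 and 0.227 for Hdac2. Hdac9 kept its spread, at 0.427 with the trends removed and 0.441 without the 3 libraries. Hdac8 had a wider spread with the trends removed, 0.343, than on plain CPM. Summed markers of endothelium were 85.73 to 103.8 CPM in the 3 libraries and 142.1 to 269.1 CPM in the other 11. Those of astrocytes were 1956 to 2257 CPM and 2883 to 7148 CPM, and subunits of the class I complexes summed to 2242 to 2405 CPM and 2978 to 4129 CPM. None of the 7 endothelial or 6 astrocyte markers was at a level of 0. The part of these cells, and of the low Rn45s share, in the pattern was not tested.

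**Figure D3:**
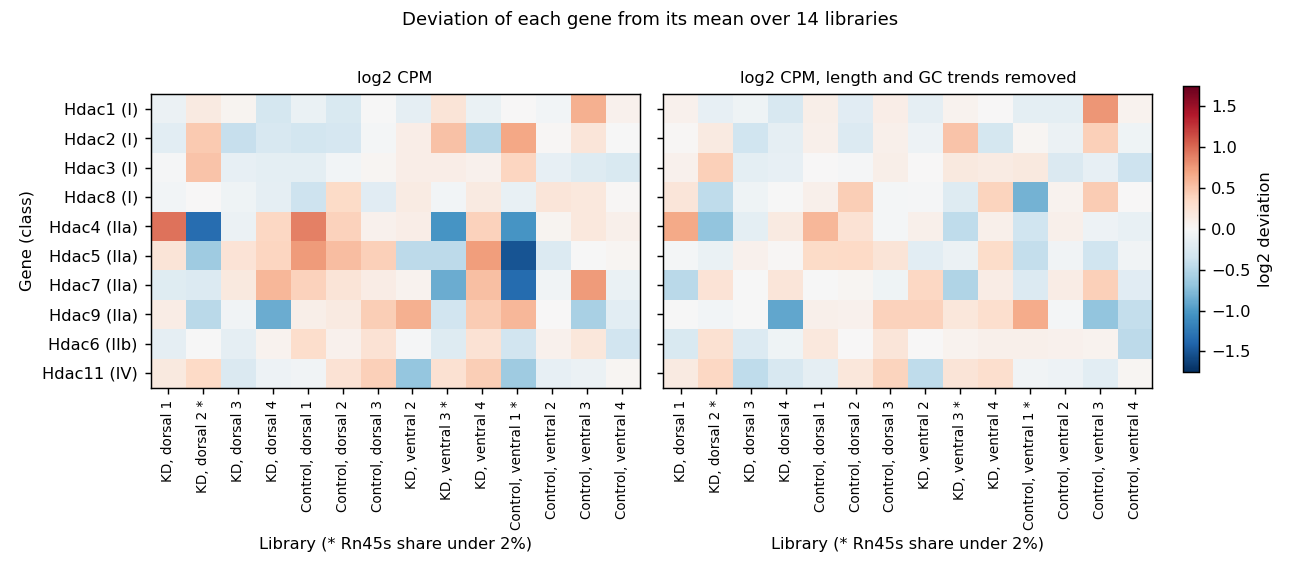
Log2 deviation of each gene from its own mean over 14 libraries (colour scale, red high and blue low), on log2 CPM (left) and after removal of length and GC trends (right); rows are genes with their class, columns are libraries by group, and asterisks mark the 3 libraries of lowest Rn45s share. The blue Hdac4 and Hdac5 cells of the asterisked columns are paler on the right; Hdac2 in knockdown ventral 3 hardly changes (0.516 and 0.495), and Hdac7 in knockdown dorsal 2 is at -0.243 on the left and 0.238 on the right.

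Hdac2 ran opposite to the class IIa genes Hdac4 and Hdac5 across libraries. Over 14 libraries Pearson's r of log2 CPM was -0.903 between Hdac2 and Hdac5, -0.812 between Hdac2 and Hdac4, 0.804 between Hdac5 and Hdac7 and 0.787 between Hdac4 and Hdac5. Over the 11 libraries without the 3, the same pairs gave -0.788, -0.339, 0.393 and 0.51. With the trends removed in all 14 they gave -0.482, -0.327, -0.026 and 0.488. The paralogs Hdac1 and Hdac2 gave 0.524 on log2 CPM and 0.594 with the trends removed. These values are descriptions; the points share library, depth and base composition.

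The 2 tested genes most like each member by r of log2 CPM over 14 libraries were Wdfy3 (0.981) and Shank2 (0.972) for Hdac4, Dusp8 and Dennd4b (both 0.976) for Hdac5, and 4921524J17Rik (0.953) and Dnajc7 (0.943) for Hdac2. With trends removed, r was 0.238 for Wdfy3 and 0.922 for Shank2. Wdfy3 and Shank2 have long transcripts, as Hdac4 does (14274, 8988 and 8100 bases). For Hdac5 the longest transcript has 5406 bases and 59.82% GC, and its most like genes had 58.78% (Dusp8) and 58.88% (Dennd4b). The other members were most like Atp5sl (0.923) and Decr2 (0.913) for Hdac3, Sfi1 (0.933) and Leng8 (0.932) for Hdac7, and Rnf180 (0.946) and Parm1 (0.83) for Hdac9. Hdac6 was most like Ccdc159 (0.942) and L3mbtl1 (0.878), and Hdac11 like Rita1 (0.893) and Fam207a (0.879). Hdac1 was most like Zfp956 (0.828) and Bhlhe22 (0.816), and Hdac8 like Prom1 (0.828) and Slc40a1 (0.712). With trends removed, r was 0.446 for Leng8 and 0.462 for Ccdc159. It was 0.632 to 0.875 for the remaining genes listed for members other than Hdac4. All were picked for the highest r among tested genes averaging 5 CPM or more, so a high r is no separate result.

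In dorsal hippocampus no histone deacetylase gene passed the test between ACSS2 knockdown and control libraries. The 4 class IIa genes had fold changes below 0 on the log2 scale and 3 of the 4 class I genes had fold changes above 0, but each interval contained 0. The median over the 10 genes was -0.15 and over all tested genes 0.03, with 7 of 10 below 0. edgeR's quasi-likelihood test called 0 of 14578 genes (0.0%) at an adjusted p under 0.05. The unadjusted p was under 0.05 for 667 genes (4.58%), among them 0 members. DESeq2 called 11 genes and 0 members.

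Hdac9, a class IIa repressor of MEF2 known from muscle and neurons, had 39.9, 26.1, 34.95 and 19.95 CPM in knockdown dorsal libraries and 39.2, 40.8 and 49.3 CPM in control dorsal libraries. One knockdown library reached into the control range. Its log2 fold change was -0.52 (SE 0.306, 95% interval -1.17 to 0.14, edgeR adjusted p = 0.999). Hdac5, the class IIa member best known for its export from the nucleus after neuronal stimulation, had 178, 98.9, 181 and 198 CPM in knockdown dorsal libraries and 255, 222 and 204 CPM in control dorsal libraries, so the groups did not overlap. Its log2 fold change was -0.47 (SE 0.373, interval -1.27 to 0.33, adjusted p = 0.999).

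Hdac6 had 47.8, 53.2, 47.8 and 55.6 CPM in knockdown dorsal libraries and 66.0, 56.2 and 63.6 CPM in control dorsal libraries, again without overlap. The highest knockdown library and the lowest control library lay less than 1 CPM apart. Its log2 fold change was -0.28 (SE 0.187, interval -0.67 to 0.12, adjusted p = 0.999). These were 2 of 10 members lower without overlap, against 3.25% of all tested genes. With length and GC trends removed the Hdac6 groups overlapped, at 44.5 to 64.6 CPM in knockdown and 53.7 to 61.7 CPM in control dorsal libraries. Leaving out any 1 library moved the Hdac5 fold change between -0.57 and -0.28, the smaller change without knockdown dorsal 2.

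The other members differed less or varied more. Hdac4 gave a log2 fold change of -0.31 with a wide interval of -1.28 to 0.67, and lay at -0.01 without knockdown dorsal 2 and at -0.69 without knockdown dorsal 1. Hdac7, a class IIa member known from the endothelium and thymocytes, gave -0.14, and Hdac11 gave -0.16. Class I members gave 0.15 for Hdac2, 0.13 for Hdac3, 0.09 for Hdac1 and -0.04 for Hdac8. The intervals of Hdac1, Hdac3 and Hdac8 lay within -0.50 and 0.58 on the log2 scale, so larger changes of these genes are outside their 95% limits.

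Other transcripts in the dorsal knockdown libraries moved beside these values. Summed markers of microglia were 315.6 to 755.5 CPM in knockdown and 206.6 to 291.1 CPM in control dorsal libraries, with 7 of 7 genes above 0 in fold change and 0 at a level of 0. Of 8 interferon-stimulated genes, 8 had fold changes above 0, with a median of 3.03 on the log2 scale, and 0 passed the adjusted threshold. They summed to 99.94 to 1030 CPM in knockdown and 79.74 to 105.7 CPM in control dorsal libraries. Knockdown dorsal 1, at 99.94 CPM, lay within the control range. Summed CA1 neuron markers were 413.0 to 656.0 CPM in knockdown and 708.6 to 867.1 CPM in control dorsal libraries, with 2 of 6 genes above 0 and 0 at a level of 0. Their part in the histone deacetylase values was not tested, and in bulk tissue fewer cells of a type and less RNA per cell cannot be told apart.

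**Figure D4:**
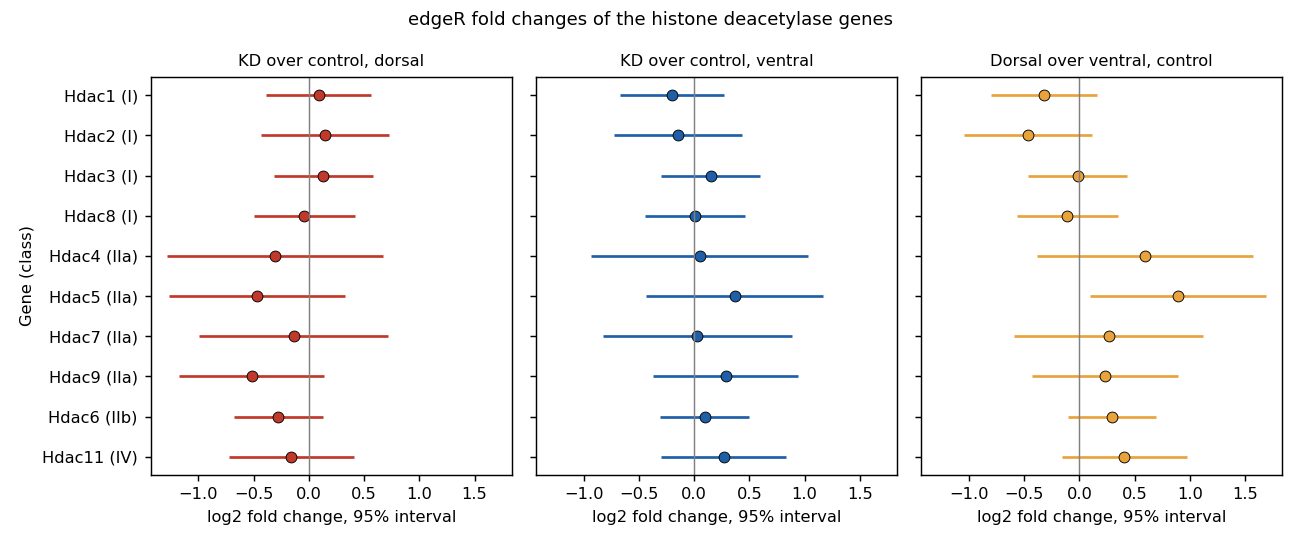
Log2 fold changes with 95% intervals from edgeR for ACSS2 knockdown over control in dorsal (left) and ventral (middle) hippocampus and for dorsal over ventral in control libraries (right), genes ordered by class. All intervals contain 0 except that of Hdac5 in the right panel (0.09 to 1.69), whose adjusted p was 0.731.

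In ventral hippocampus the members again did not pass the test, and 8 of 10 had fold changes above 0, with a median of 0.07 against -0.01 over all tested genes. edgeR called 0 of 14578 genes (0.0%), and DESeq2 called 35 genes and 0 members. An unadjusted p under 0.05 was found for 593 genes (4.07%) and 0 members. In 0 of 10 genes did the groups stand apart without overlap, where 2.68% of all tested genes did. Hdac5 had 110.6, 110.5 and 252.1 CPM in knockdown ventral libraries 2, 3 and 4 and 53.2, 128, 151 and 156 CPM in control ventral libraries. The knockdown range enclosed 3 of the 4 control libraries, and the log2 fold change was 0.37 (SE 0.374, interval -0.43 to 1.17, edgeR adjusted p = 1). Without knockdown ventral 4 it was -0.14.

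Hdac9 had 56.3, 28.7 and 49.6 CPM in knockdown ventral libraries and 54.6, 36.6, 24.5 and 31.9 CPM in control ventral libraries, with a log2 fold change of 0.29 (SE 0.305, adjusted p = 1). Without the 3 libraries of lowest Rn45s share, which left 2 knockdown and 3 control libraries, it was 0.77 (SE 0.271, unadjusted p = 0.0153, edgeR adjusted p = 0.363). In that setting 9.46% of all tested genes had an unadjusted p under 0.05. Hdac11 gave 0.27 and Hdac3 0.15, and Hdac6, Hdac4, Hdac7 and Hdac8 lay between 0.01 and 0.09. Hdac1 gave -0.20 and Hdac2 -0.14. Markers of other tissue moved in this comparison too. Choroid plexus markers, 6 of 6 below 0 in fold change with a median of -5.49, summed to 42.0 to 57.2 CPM in knockdown ventral libraries and to 32.9, 69.3, 612 and 15280 CPM in control ventral libraries, the last being control ventral 4. Up to 2 of these 6 markers were at a level of 0 in a ventral library. Dentate granule markers were below 0 in 6 of 6, with sums of 135.9 to 335.8 CPM in knockdown and 223.9 to 862.3 CPM in control ventral libraries. CA1 markers were above 0 in 5 of 6. Without control ventral 4, Hdac5 gave 0.51, Hdac9 0.23 and Hdac2 -0.22, and 6 of 10 members were above 0. The part of the other markers was not tested.

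Averaged over both regions the knockdown difference ran from -0.13 for Hdac4 to 0.14 for Hdac3, edgeR called 0 of 14578 genes (0.0%) and 0 of 10 members had an unadjusted p under 0.05, against 3.96% of all genes.

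The knockdown differences of the 2 regions, dorsal minus ventral, were tested directly and 0 of 14578 genes (0.0%) were called, while 4.61% of genes and 0 of 10 members had an unadjusted p under 0.05. For class IIa the difference was below 0 in 4 of 4 genes, with -0.83 for Hdac5 (SE 0.528, unadjusted p = 0.136, edgeR adjusted p = 0.998) and -0.80 for Hdac9 (SE 0.432, unadjusted p = 0.0836, adjusted p = 0.998). Hdac4 gave -0.36, Hdac7 -0.17, Hdac6 -0.37 and Hdac11 -0.42. Hdac1 and Hdac2 gave 0.29 each, Hdac3 -0.02 and Hdac8 -0.05. Without the 3 libraries, left out after seeing the data, the Hdac9 value was -1.22 (SE 0.367, unadjusted p = 0.00607, edgeR adjusted p = 0.321). In that setting 8.91% of all tested genes had an unadjusted p under 0.05. Leaving out 1 library moved Hdac5 between -1.03 and -0.33 (-0.33 without knockdown ventral 4) and Hdac4 between -0.75 and -0.06. Hdac7 moved between -0.55 and 0.18 and was above 0 without knockdown ventral 4 or control ventral 1, so 4 of 4 did not hold there.

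Between the regions of control mice, Hdac5 was the member with the lowest p. It had 255, 222 and 204 CPM in control dorsal libraries and 53.2, 128, 151 and 156 CPM in control ventral libraries, without overlap. The log2 fold change was 0.89 (SE 0.373, interval 0.09 to 1.69, unadjusted p = 0.0312), and the edgeR adjusted p of 0.731 did not pass. Leaving out control ventral 1, the lowest library, gave the lowest value of any 1 library left out, 0.63, and the highest was 1.02. The unadjusted edgeR p was under 0.05 for 0 members without control dorsal 1, control dorsal 2, control ventral 1 or control ventral 2. Of the 14578 tested genes 0 were called (0.0%), 5.58% had an unadjusted p under 0.05, and 5.54% were higher in dorsal tissue without overlap. DESeq2 called 13 genes and 0 members.

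Hdac2 was the opposite case, with 54.4, 55.1 and 66.0 CPM in control dorsal libraries and 67.4 to 108 CPM in control ventral libraries. These ranges did not overlap but came close, 3.73% of genes were lower in dorsal tissue without overlap, and the log2 fold change was -0.46 (SE 0.273, interval -1.05 to 0.12, adjusted p = 0.731). With the length and GC trends removed the groups overlapped, at 57.6 to 72.2 CPM in control dorsal and 63.3 to 90.5 CPM in control ventral libraries. All 4 class IIa genes had dorsal over ventral fold changes above 0, with a median of 0.43, and all 4 class I genes below 0, with a median of -0.22. The median over all tested genes was -0.06. Hdac4 gave 0.59, Hdac11 0.41, Hdac6 0.29, Hdac7 0.26, Hdac9 0.23, Hdac1 -0.32, Hdac8 -0.11 and Hdac3 -0.02. This split by class did not hold without the 3 libraries, where Hdac3 gave 0.16 and Hdac7 was at -0.00. Choroid plexus markers were below 0 in 6 of 6 (median -3.68), interferon-stimulated genes in 8 of 8 (median -2.11) and dentate granule markers in 6 of 6 (median -1.16), and CA1 markers were above 0 in 5 of 6 (median 1.44). Choroid plexus sums were 37.8 to 391.3 CPM in control dorsal and 32.9 to 15280 CPM in control ventral libraries. Interferon-stimulated genes summed to 79.7 to 105.7 CPM in control dorsal and 95.8 to 679.5 CPM in control ventral libraries, and dentate granule markers to 107.7 to 272.4 CPM and 223.9 to 862.3 CPM. Without control ventral 4, the library of highest choroid plexus sum, Hdac5 gave 1.02 and Hdac2 -0.55, and the part of the other markers was not tested.

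In knockdown mice the dorsal over ventral fold changes had a median of -0.03, with 3 of 10 above 0 and 0 of 10 without overlap, against 1.74% of all tested genes. Hdac9 gave -0.57 (SE 0.304, unadjusted p = 0.081, edgeR adjusted p = 1), Hdac5 0.06 and Hdac2 -0.17. Leaving out 1 library moved Hdac9 between -0.81 and -0.38, Hdac5 between -0.15 and 0.56 and Hdac2 between -0.40 and 0.08. edgeR called 0 of 14578 genes (0.0%) and 2.17% had an unadjusted p under 0.05, with 0 members among them. The unadjusted edgeR p was under 0.05 for 1 member without knockdown dorsal 1 (400 of 14612 genes) and without knockdown ventral 3 (845 of 14790). It was also under 0.05 for 1 member with a replicate block (422 of 14578) and without the 3 libraries of lowest Rn45s share (1144 of 14759). The dorsal knockdown and control comparisons share libraries with the region comparisons, so these values are given side by side only.

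Hdac5 was also followed with the length and GC trends removed, since it is both long and GC-rich. The knockdown dorsal libraries then had 148, 140.3, 161 and 154 CPM and the control dorsal libraries 192, 195.0 and 178 CPM. Knockdown ventral libraries had 134, 142 and 190.5 CPM and control ventral libraries 115, 146, 120.3 and 146 CPM. The 3 control dorsal libraries and knockdown ventral 4 were the highest 4 of the 14. The dorsal knockdown log2 fold change was -0.32 (SE 0.153, unadjusted p = 0.0548, edgeR adjusted p = 0.815) and the control dorsal over ventral value 0.52 (SE 0.153, unadjusted p = 0.00443, adjusted p = 0.898). The difference of the 2 knockdown effects was -0.56 (unadjusted p = 0.0216, adjusted p = 0.763), and 0 genes were called in any comparison on this scale. An unadjusted p under 0.05 was found on this scale for 6.22% of all tested genes in the dorsal knockdown comparison, 5.06% in the control region comparison and 5.87% for the difference of effects. Of all tested genes, 5.29% were lower without overlap in the dorsal knockdown comparison, as Hdac5 and Hdac9 were, and 5.14% higher without overlap in the control region comparison, as Hdac5 was.

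Hdac9 on the same scale had 36.2, 35.2, 36.4 and 19.4 CPM in knockdown dorsal libraries and 38.7, 38.6 and 48.5 CPM in control dorsal libraries. In ventral tissue it had 48.4, 42.0 and 44.8 CPM in knockdown libraries and 57.2, 35.6, 22.7 and 27.4 CPM in control libraries. Knockdown dorsal libraries thus lay below knockdown ventral ones without overlap, as for 1.54% of all tested genes, with a log2 fold change of -0.50 (SE 0.282, unadjusted p = 0.0952, edgeR adjusted p = 1), where 2.96% of genes had an unadjusted p under 0.05. Control ventral 1 was the highest of the 14 libraries and knockdown dorsal 4 the lowest.

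**Figure D5:**
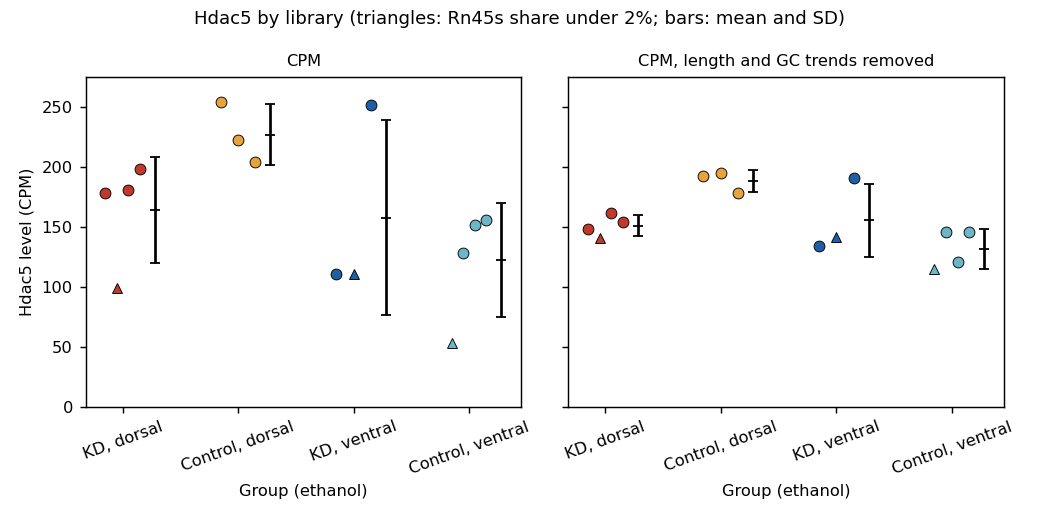
Hdac5 level in each of 14 ethanol libraries, in CPM (left) and in CPM after removal of length and GC trends (right), by group, with bars for mean and SD and triangles for the 3 libraries of lowest Rn45s share. Knockdown dorsal libraries (98.9 to 198 CPM at left) lie below control dorsal libraries (204 to 255 CPM), which lie above control ventral libraries (53.2 to 156 CPM), in both panels; knockdown ventral libraries run from 110.5 to 252.1 CPM at left.

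The same 4 libraries had the highest sums of CA1 neuron markers. The sums were 613, 656.0, 629 and 413.0 CPM in knockdown dorsal and 867, 709 and 832 CPM in control dorsal libraries, and 579.0, 547 and 1161 CPM in knockdown ventral and 601, 412, 141 and 283 CPM in control ventral libraries. Of the 6 CA1 markers 0 were at a level of 0 in any library. The part of the share of CA1 tissue in the Hdac5 values was not tested.

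Partners and targets of the deacetylases gave no calls either. Of 28 subunits of the class I complexes (NuRD, CoREST, Sin3 and NCoR/SMRT), 28 were tested, and 8 had fold changes above 0 and 20 below 0 in the dorsal knockdown comparison, with a median of -0.10, and 0 passed. The smallest p was that of Chd5, a neuronal NuRD remodeller, with a log2 fold change of -0.78 (SE 0.433, unadjusted p = 0.0922, edgeR adjusted p = 0.999). In ventral tissue 12 were above 0 and 16 below, with a median of -0.03, and Chd5 again had the smallest p, with 0.66 (SE 0.433, unadjusted p = 0.15, adjusted p = 1). Over both regions Tbl1x, a subunit of NCoR/SMRT, had the smallest p (-0.37, SE 0.192, unadjusted p = 0.076, edgeR adjusted p = 1).

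Of the class IIa signalling list, which holds MEF2 factors and targets, the kinases that phosphorylate class IIa proteins and their 14-3-3 carriers, 19 of 20 genes were tested and 0 passed. In the dorsal knockdown comparison 5 were above 0 and 14 below, with a median of -0.14, and Camk4, a calcium-dependent kinase, had the smallest p (-0.52, SE 0.31, unadjusted p = 0.116, edgeR adjusted p = 0.999). In ventral tissue 10 were above 0 and 9 below, with a median of 0.01, and Mef2c, a MEF2 factor bound by class IIa proteins, had the smallest p (1.07, SE 0.583, unadjusted p = 0.086, adjusted p = 1). Over both regions it was Sik1, a salt-inducible kinase (-0.47, SE 0.39, unadjusted p = 0.247, edgeR adjusted p = 1).

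The NAD-dependent class III enzymes, the sirtuins, form a separate family and were all tested. In both knockdown comparisons 6 of 7 had fold changes above 0, with medians of 0.11 in dorsal and 0.12 in ventral tissue, and 0 passed. Sirt7, a nucleolar sirtuin, had the smallest dorsal p (0.21, SE 0.183, unadjusted p = 0.276, edgeR adjusted p = 0.999). Sirt3, the main mitochondrial deacetylase, had the smallest ventral p (0.52, SE 0.279, unadjusted p = 0.0808, adjusted p = 1) and the smallest over both regions (0.30, SE 0.199, unadjusted p = 0.148, adjusted p = 1).

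Ethanol itself could not be assessed for these genes. The 4 untreated libraries held 4279 to 221847 gene reads, with 12 and 2 reads over all 10 members in the knockdown libraries and 18 and 51 in the control libraries. Only 0.991% to 1.43% of the unique reads of these untreated libraries fell in genes, against 57.4% to 81.0% in the 14 libraries compared. The ethanol libraries knockdown dorsal 5 and knockdown ventral 1 had 5 member reads each. The 1 knockdown library of whole hippocampus had 7882 member reads, with Hdac5 at 276.5 CPM and Hdac4 at 76.3 CPM, and no counterpart to compare it with.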

How the data were processed

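RNA-seq of mouse hippocampus was deposited by the authors as raw counts of reads per gene. Per the submitters' processing notes, STAR 2.5.2a, HTSeq 0.6.1p1 and mm10 were used; the annotation release and strand setting are not given in the sources used here. Summary lines were left out. The 14 ethanol libraries with over 1000000 gene reads entered 1 edgeR 4.0.16 fit in R 4.3.3 (quasi-likelihood F-test, TMM, filterByExpr with a minimum count of 10, robust, 4 group means), with Benjamini-Hochberg adjustment over 14578 genes and calls under 0.05. Depth limits low genes most; intervals (95%) cover spread between libraries. Level per kb divides TMM-scaled CPM by GENCODE M21 exon length. Length and GC trends were quadratic, fitted per library on log2 CPM (prior count 1) over 14132 genes and used as offsets. All 10 members are named; of other lists, the gene of smallest p in each knockdown comparison. Alternatives were DESeq2 1.42.0, RLE scaling, no filter, other sets of libraries and replicate blocks. Scripts were tested on simulated data. Members and lists were chosen with earlier results of these data known.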

Additional observations from a re-analysis of the deposited data

Results flagged for a closer look

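In 3 of 20 gene and group combinations with 4 libraries, 1 library stood apart from the others by its gap relative to the range, where chance gives about 1 in 20 such groups. Hdac1 had 26.2 CPM in control ventral 3, against 16.4 to 17.8 CPM in the other control ventral libraries. Hdac3 had 103 CPM and Hdac4 28.2 CPM in control ventral 1, a library of low Rn45s share in which GC-rich genes were low. The other control ventral libraries had 66.3 to 72.2 CPM of Hdac3 and 59.9 to 66.2 CPM of Hdac4.

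Libraries outside every comparison held reads of these genes above the limit that a count of 0 allows: 12 reads in knockdown dorsal untreated 1, 18 in control dorsal untreated 1 and 51 in control dorsal untreated 2, summed over the 10 genes. Single genes had at most 12 reads there, too few for a level. In these untreated libraries 0.991% to 1.43% of unique reads fell in genes.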

How the results depend on the processing

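No alternative called a member. Of 460 alternative values for 30 member fold changes, 39 changed sign, over 14 of the fold changes. These were the fold changes of the dorsal knockdown, ventral knockdown and control region comparisons. Sign changes in the other comparisons were not counted. Genes called over the whole table were 0 in each comparison; DESeq2 gave 11 (dorsal knockdown), 35 (ventral), 4 (both), 13 (control regions) and 9 (difference of knockdown effects). Without the 3 libraries of lowest Rn45s share the counts were 7 (ventral), 3, 12 and 6. With all 20 libraries they were 1 (ventral) and 1 (difference). Leaving out 1 library gave 0 to 8 (ventral), 0 to 2 (both), 0 to 6 (control regions) and 0 to 2 (difference). The cause was not tested. Sign changes in the dorsal knockdown comparison were, without the 3 libraries, -0.08 (Hdac2) and -0.05 (Hdac3), and with trends removed, -0.11 (Hdac1), -0.05 (Hdac2) and 0.03 (Hdac7); in the ventral one, Hdac8 gave -0.01 with RLE, DESeq2, all 20 libraries and without the 3, and Hdac7 gave -0.01 with all 20 and -0.03 with trends removed. For control regions, Hdac3 gave 0.16 in both, Hdac7 -0.00 and -0.07, and Hdac8 0.19 with trends removed. Leaving out 1 library, dorsal ranges were -0.07 to 0.26 (Hdac2), -0.04 to 0.20 (Hdac3) and -0.15 to 0.20 (Hdac8). Ventral ranges were -0.39 to 0.09 (Hdac2), -0.06 to 0.07 (Hdac8), -0.25 to 0.37 (Hdac4), -0.14 to 0.57 (Hdac5), -0.31 to 0.42 (Hdac7) and -0.03 to 0.21 (Hdac6). Control region ranges were -0.09 to 0.15 (Hdac3), -0.35 to 0.01 (Hdac8) and -0.01 to 0.65 (Hdac7). Levels per kb moved beyond 1 SD in 8 of 10 genes with the longest transcript and 0 with RLE. The longest transcript is shorter than all exons together in each gene, so every level rose by a factor set by the annotation alone. Same-numbered replicates correlated at -0.22 to 0.367, with 6 of 18 pairs over 0.1, the 3 among replicate 4 libraries included (0.185 to 0.367), so the check did not show that the numbers pair libraries; a replicate block called 0 genes and gave -0.04 (Hdac8) and -0.09 (Hdac7) in ventral tissue. Precision was lowest for Hdac4, whose dorsal knockdown interval ran from -1.28 to 0.67.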
